A study of Homo sapiens with 4 samples.

Results

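The 10 genes ZEB1, ZEB2, SNAI1, SNAI2, TWIST1, VIM, CDH2, ESRP1, ESRP2 and GRHL2, which mark or control the passage between epithelial and mesenchymal states, were followed across the 4 libraries of an EMP2 knockdown experiment. ZEB, SNAI and TWIST genes encode transcription factors, VIM and CDH2 mesenchymal structural proteins, ESRP1 and ESRP2 splicing regulators of epithelia, and GRHL2 an epithelial transcription factor. The 10 were chosen by symbol from the 25343 genes of the deposited table, and all 10 had a row. The cells were SUM149PT, a human line from an inflammatory breast cancer, grown in a medium with serum, insulin and hydrocortisone. In the control group (2 libraries) they had been stably infected with a lentiviral control construct, and in the knockdown group (2 libraries) with a lentiviral short hairpin RNA against EMP2, which encodes a small tetraspan membrane protein. The source names give both knockdown libraries the same hairpin, so a single construct stands for the knockdown. The labels do not say whether the libraries of a group came from separate cultures, so every p-value below refers to the variation among these 4 libraries alone, which may be technical.

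Epithelial-mesenchymal transition (EMT) is a change of state in which epithelial cells loosen their junctions and take up a mesenchymal, motile form. The zinc finger factors of the ZEB and SNAI families and the bHLH factor TWIST1 drive it, and the ZEB and SNAI proteins bind E-box motifs and repress epithelial genes such as E-cadherin (CDH1). GRHL2 holds the epithelial state and, with the microRNAs of the miR-200 family, opposes ZEB1. ESRP1 and ESRP2 are RNA-binding proteins that keep the epithelial splice forms of genes such as FGFR2 and CD44. In breast tumours the programme is often partial, with epithelial and mesenchymal genes expressed in the same cells.

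EMP2 itself gave 126.1 and 124.6 CPM with the control construct against 23.0 and 22.6 CPM with the hairpin, so that 18.2% of the control mean was left. CPM are reads per gene relative to the reads of the library, scaled by the authors with TMM factors that set the bulk of genes equal between libraries. The libraries held 13360907 to 14647053 reads. All 7 epithelial markers were expressed, with a summed level of 4713 to 4741 CPM in the controls and 4869 to 4907 CPM in the knockdowns. KRT8, KRT18 and CDH1 rose, KRT14 and KRT19 fell, and KRT5 and EPCAM did not pass the test. With quantile scaling KRT19 changed sign (log2 change 0.016 in place of -0.17) and was not called, and without the abundance trend of the test neither KRT18 nor KRT19 was called. Among other cell types, 6 of 9 fibroblast markers (including COL1A2, COL3A1 and PDGFRA), 5 of 6 endothelial markers (including CDH5 and KDR) and 4 of 7 leukocyte markers (including PTPRC and CD3E) did not reach 1 CPM in 2 libraries. The summed fibroblast level was 130.3 to 131.4 CPM in the controls and 121.1 to 124.1 CPM in the knockdowns, nearly all of it COL1A1, DCN and FAP. Of these DCN fell by 0.79 on the log2 scale and FAP rose by 1.10, while COL1A2 was at 0 in all 4 libraries, as was CD3E among the leukocyte markers. The summed endothelial level was 2.88 to 3.39 and 2.70 to 3.23 CPM, and the summed leukocyte level 88.6 to 93.1 and 67.3 to 70.2 CPM, most of it CD68, which fell by 0.44 on the log2 scale. The part of these markers in the results was not tested. In bulk RNA, a smaller share of cells that express a gene and less RNA of it per cell cannot be told apart.

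At this depth 9 of the 10 genes were expressed well enough to be tested (at least 1 CPM in at least 2 libraries) and ZEB1 was low. The N-cadherin gene CDH2, the snail genes SNAI1 and SNAI2, the epithelial factor GRHL2 and the splicing regulator ESRP1 rose, while vimentin (VIM) and ZEB2 fell; TWIST1 and ESRP2 did not pass the test. Genes of the mesenchymal programme thus moved in both directions, and 2 epithelial guardians rose beside the snail genes, by smaller amounts. The calls of ESRP1, GRHL2, SNAI2 and ZEB2 did not hold under every alternative setting. The count of 5 higher among 9 tested stands beside 16.6% of all 13661 tested genes called higher, and the 2 lower beside 16.8% called lower (limma, adjusted p under 0.05), or 33.4% in either direction. Both knockdown libraries lay above both controls for 5 of the 9 genes (33.4% of all tested genes) and below both for 3 (32.3%), so that the groups were separate for 8 of 9, against 65.6% of all tested genes. The median log2 change of the 9 was 0.12, against 0.0037 over all tested genes. Log2 changes are knockdown minus control after adding 0.5 CPM, an offset that makes changes of low genes look smaller than they are.

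**Figure D1:**
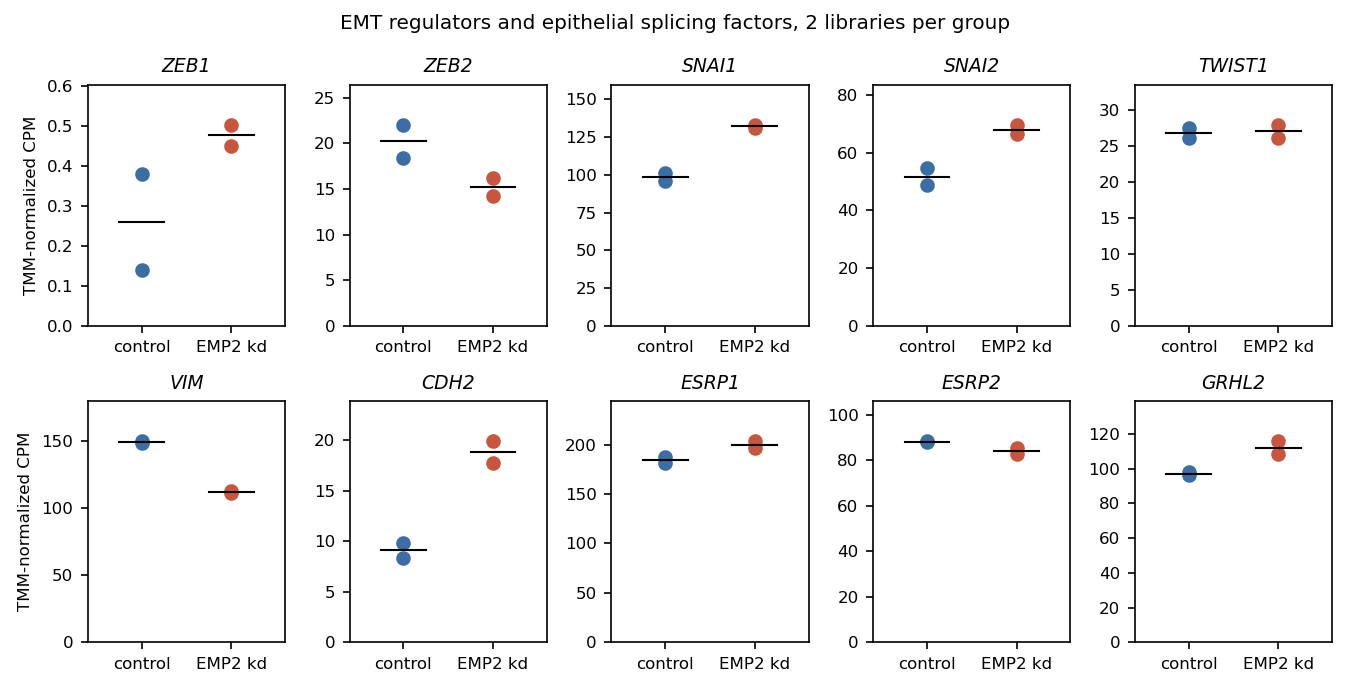
TMM-normalized CPM (vertical axis, from 0, scaled to each gene) of the 10 genes in the 2 control libraries (blue) and the 2 EMP2 knockdown libraries (red, EMP2 kd), with the group means as black bars. CDH2 lies between 8.37 and 9.84 CPM in blue and between 17.8 and 19.9 CPM in red, and ZEB1 does not exceed 0.502 CPM in any library.

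**Figure D2:**
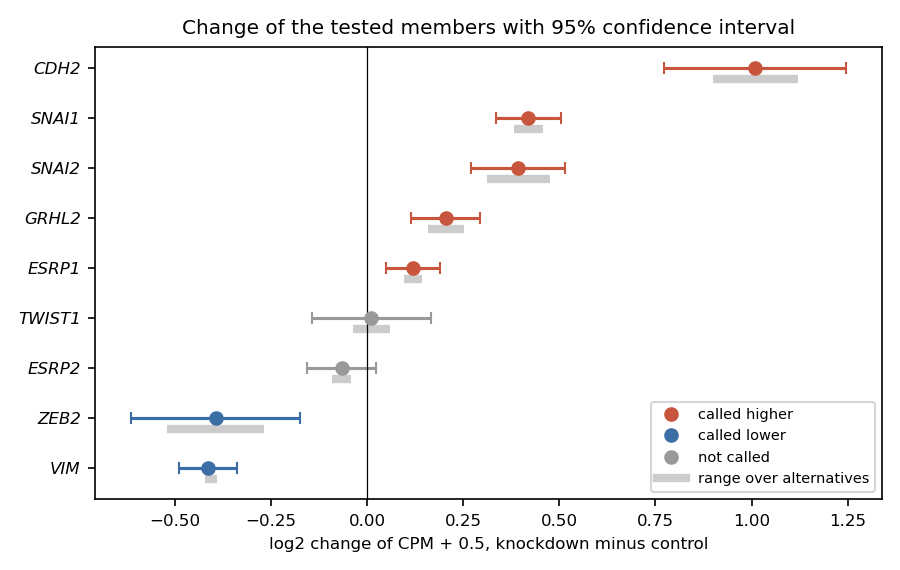
Log2 change (horizontal axis) of the 9 tested genes with its 95% confidence interval from the limma fit, coloured by call, and the range over all alternative settings as grey bars. CDH2 at 1.01 stands highest and VIM at -0.41 lowest; the intervals of TWIST1 and ESRP2 cross 0.

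The ZEB factors were the least abundant of the 10 per annotated exon length, which is 25058 bases for ZEB2. Before division by length, the control mean of ZEB2 (20.2 CPM) was above that of CDH2 (9.11 CPM). ZEB2 read 18.4 and 22.04 CPM in the control libraries and 14.2 and 16.3 CPM in the knockdown libraries, from 198 to 291 reads. Both knockdown libraries lay below both controls, with a gap of 2.14 CPM that is smaller than the distance between the 2 controls. This made a log2 change of -0.39 (standard error 0.10, interval at 95% confidence -0.61 to -0.18, adjusted p by limma 0.00717). The call rests on control replicate 2, without which the log2 change of -0.27 had a limma adjusted p of 0.111. It was also lost with DESeq2 (adjusted p = 0.0955) and with limma without the abundance trend (adjusted p = 0.115).

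ZEB1, a direct repressor of CDH1, was close to the limit of detection. It was covered by 2 and 5 reads in the controls and by 7 and 6 reads in the knockdowns, or 0.138, 0.379, 0.502 and 0.449 CPM, where 3 reads, the limit that a count of 0 allows, come to 0.208 to 0.227 CPM. That limit covers counting error only. The log2 difference of 0.38 depends on the added 0.5 CPM (it was 0.77 with 0.1 CPM added), and a difference was not detectable at this depth. In the fit without a filter on low values the limma adjusted p was 0.268. The antisense gene ZEB1-AS1, which overlaps ZEB1 on the opposite strand, had more reads than ZEB1 in every library, at 5.74, 5.76, 4.66 and 5.17 CPM in the same order (log2 change -0.21, limma adjusted p = 0.332). Since the strand setting of the counting is not given, reads in the 366 exonic bases that ZEB1 and ZEB1-AS1 share in the GENCODE annotation cannot be assigned to either.

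SNAI1 (Snail) and SNAI2 (Slug), repressors of CDH1 that share a zinc finger domain, rose by like amounts. SNAI1 read 101.1 and 95.9 CPM with the control construct against 130.8 and 133.0 CPM with the hairpin. The gap between the groups, 29.7 CPM, was several times the distance between replicates. Its mean went from 98.5 ± 3.67 to 131.9 ± 1.59 CPM (SD over 2 libraries), with a log2 change of 0.42 (standard error 0.040, adjusted p by limma 4.40e-07). SNAI2 read 54.6 and 48.8 CPM with the control construct against 66.3 and 69.7 CPM with the hairpin, without overlap (log2 change 0.39, standard error 0.058, limma adjusted p = 5.09e-05). Without the abundance trend SNAI2 was at an adjusted p = 0.0529. The log2 ratio of SNAI1 to SNAI2 within a library was 0.88 and 0.97 in the controls and 0.98 and 0.93 in the knockdowns, so the ratio overlapped between the groups (exact permutation test, two-sided, p = 0.667; 2 against 2 libraries cannot go below 0.333).

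TWIST1, the bHLH factor of the group, stayed within its replicate spread. It read 26.1 and 27.5 CPM with the control construct against 26.1 and 27.9 CPM with the hairpin. The control values lay inside the range of the knockdown values, and the 95% confidence interval of the log2 change ran from -0.15 to 0.17 (limma adjusted p = 0.934). Its relative TWIST2 fell from 4.79 ± 0.460 to 2.901 ± 0.348 CPM (SD over 2 libraries), with a log2 change of -0.64 (adjusted p by limma 0.0125). TWIST2 was not called without control replicate 1, without EMP2 knockdown replicate 1, without a filter and with DESeq2.

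The mesenchymal structural genes moved apart. CDH2, the adhesion molecule that replaces E-cadherin in the classical cadherin switch, read 8.37 and 9.84 CPM with the control construct against 19.9 and 17.8 CPM with the hairpin. Its mean rose 2.07-fold, from 9.11 ± 1.04 to 18.8 ± 1.499 CPM (SD over 2 libraries), with a log2 change of 1.01 (standard error 0.11, 95% interval 0.77 to 1.25, adjusted p by limma 2.50e-06). VIM, the intermediate filament protein of mesenchymal cells, read 148.9 and 150.1 CPM with the control construct against 111.4 and 112.8 CPM with the hairpin, or 75.0% of the control mean. The replicates of VIM lay close together and the groups 36.1 CPM apart (log2 change -0.41, standard error 0.036, limma adjusted p = 1.49e-07). The calls of CDH2, VIM and SNAI1 held under every alternative that was run. VIM-AS1, an antisense gene that shares 641 of the 5158 annotated exonic bases of VIM, gave 2.42, 2.80, 2.01 and 1.87 CPM in the same library order, and reads in the shared bases cannot be told apart.

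Promoter windows of 250 bases before the start were taken from RefSeq (GRCh38.p14) and matched CDH2, VIM, ZEB1 and ZEB2; SNAI1, SNAI2, TWIST1, ESRP1, ESRP2 and GRHL2 were not analysed here. The motif CAGGTG, an E-box bound by ZEB and SNAI factors, was searched on both strands and occurred in 17.5% of 35116 such windows. It was found in none of the windows of VIM, CDH2 and ZEB2 and in 2 of the 7 windows of ZEB1, once and 2 times. The GC box GGGCGG, the motif of SP1 family factors, does not overlap the E-box and occurred in 42.6% of all windows. The window of VIM, which fell in every setting, is shown and overlaps no annotated exon. The CDH2 window at chr18:28036642-28036891 also overlaps none but is not printed here. The VIM window covers chr10:17227991-17228240 on the plus strand and reads 5′ to 3′. Its single GC box, which begins 46 bases before the RefSeq start, is in capitals.
VIM: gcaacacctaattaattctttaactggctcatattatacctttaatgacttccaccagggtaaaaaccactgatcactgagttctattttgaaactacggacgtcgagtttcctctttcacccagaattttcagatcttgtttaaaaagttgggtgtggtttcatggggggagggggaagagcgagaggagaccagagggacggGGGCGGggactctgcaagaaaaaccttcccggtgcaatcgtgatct

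The windows of CDH2 differed in composition: the one at its upstream start held 66.0% G or C and 1 GC box, and the one at its internal start 42.0% and none. A match is only a description of these letters. Binding of any factor was not measured.

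E-cadherin did not fall where N-cadherin rose. CDH1, the adhesion molecule of epithelial junctions and the best known target of ZEB and SNAI repression, read 340.5 and 346.2 CPM with the control construct against 444.0 and 454.4 CPM with the hairpin, without overlap (log2 change 0.39, limma adjusted p = 9.93e-09). Within a library the log2 ratio of VIM to CDH1 was -1.19 and -1.20 in the controls and -1.99 and -2.005 in the knockdowns, a difference of -0.80. The log2 ratio of CDH2 to CDH1 rose from -5.26 and -5.07 to -4.45 and -4.64, a difference of 0.62. Neither ratio overlapped between the groups, and both reached the smallest p that the exact permutation test allows for 2 against 2 libraries (two-sided, p = 0.333). The 2 mesenchymal markers therefore moved in opposite directions against the same epithelial gene.

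**Figure D3:**
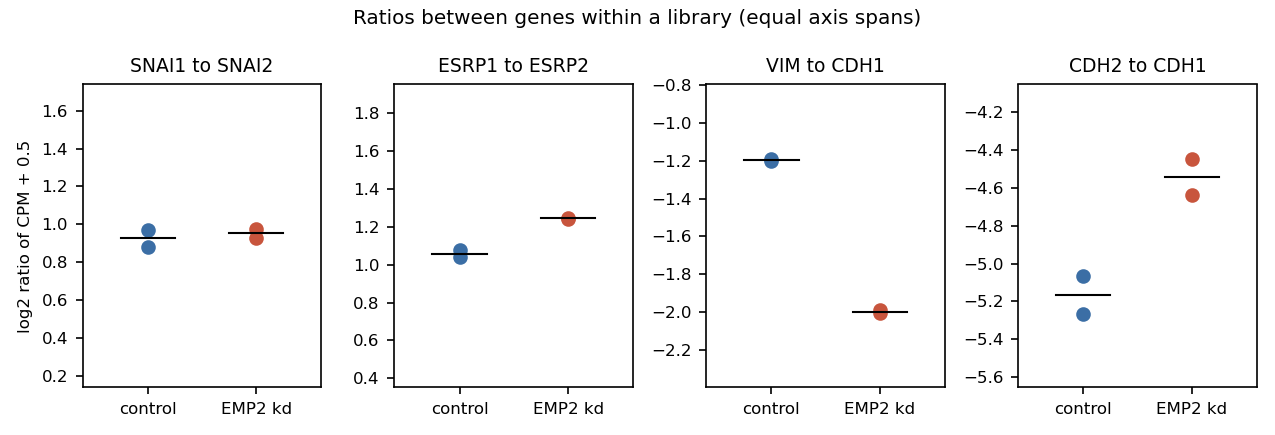
Log2 ratio of CPM + 0.5 (vertical axis, the same span in every panel) between pairs of genes within each control (blue) and EMP2 knockdown (red, EMP2 kd) library, with group means as black bars. VIM to CDH1 drops by 0.80, CDH2 to CDH1 rises by 0.62, ESRP1 to ESRP2 rises by 0.19 and SNAI1 to SNAI2 overlaps between the groups.

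The epithelial guardians were abundant and changed little. ESRP1 read 181.2 and 187.2 CPM with the control construct against 203.3 and 196.7 CPM with the hairpin, a rise to 108.6% of the control mean without overlap (log2 change 0.12, standard error 0.034, 95% confidence interval 0.047 to 0.19, limma adjusted p = 0.0118). It was not called after dropping control replicate 1 (limma adjusted p = 0.0976) or EMP2 knockdown replicate 1 (0.0664), with DESeq2 (0.136) and without the abundance trend (0.178). ESRP2, its paralog, read 87.9 and 88.4 CPM with the control construct against 85.6 and 82.6 CPM with the hairpin; the groups lay 2.25 CPM apart and the change did not pass the test (log2 change -0.067, 95% confidence interval -0.16 to 0.023, limma adjusted p = 0.252). NFATC3, a gene on the other strand, shares 149 exonic bases with ESRP2. The log2 ratio of ESRP1 to ESRP2 was 1.04 and 1.08 in the controls and 1.24 and 1.25 in the knockdowns (difference 0.19, exact permutation test, two-sided, p = 0.333, the smallest possible). GRHL2, a grainyhead factor that activates CDH1 and claudin genes, read 98.0 and 96.2 CPM with the control construct against 108.3 and 115.7 CPM with the hairpin. It rose to 115.4% of its control mean (log2 change 0.20, standard error 0.042, limma adjusted p = 0.00126), and without the abundance trend its adjusted p was 0.0895.

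Divided by the annotated exon length of each gene, the levels kept nearly the same order in both groups. In the controls SNAI1 led with 58.4 CPM per kb, followed by ESRP1 (37.8 CPM per kb) and VIM (28.99 CPM per kb). GRHL2, ESRP2 and SNAI2 lay together at 16.0, 15.8 and 15.2 CPM per kb, and the 2 control values of SNAI2, 14.4 and 16.1, spanned those of ESRP2. TWIST1 followed at 13.2, CDH2 at 1.84, ZEB2 at 0.807 and ZEB1 at 0.0299 CPM per kb. In the knockdown SNAI2 (20.04 CPM per kb) stood above GRHL2 (18.5) and ESRP2 (15.1), and the other ranks did not change. The length is the union of all annotated exons, 1686 bases for SNAI1 and 25058 bases for ZEB2, and transcripts that use fewer exons have a higher level per length than is shown.

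**Figure D4:**
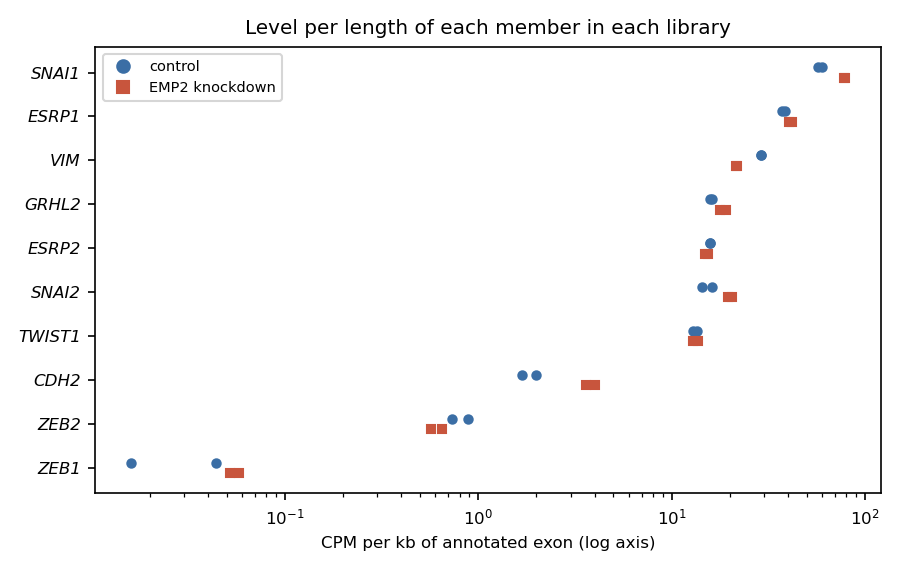
CPM per kb of annotated exon (horizontal log axis) for each of the 10 genes in the control libraries (blue circles) and the EMP2 knockdown libraries (red squares), ordered by the control mean. SNAI1 is the highest at 58.4 CPM per kb in the controls and ZEB1 the lowest at 0.0299 CPM per kb.

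Positions are from GENCODE 29 on GRCh38. SNAI2 (48917604 to 48921740, minus strand), ESRP1 (94641074 to 94707466, plus strand) and GRHL2 (101492432 to 101669726, plus strand) are on chromosome 8, and all 3 rose. Over the 437 tested genes of chromosome 8, 16.0% were called higher and 18.3% lower, with a median log2 change of 0.0070, close to the values over all genes. CDH2 spans 27950966 to 28177446 of chromosome 18 (minus strand), VIM 17228259 to 17237593 of chromosome 10 (plus strand) and ZEB2 144364364 to 144524583 of chromosome 2 (minus strand). SNAI1 spans 49982999 to 49988886 of chromosome 20 (plus strand), TWIST1 19020991 to 19117672 of chromosome 7 (minus strand), ESRP2 68229111 to 68238102 of chromosome 16 (minus strand) and ZEB1 31318495 to 31529814 of chromosome 10 (plus strand).

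Groups of regulators around the 10 genes were read from the same fit. Their counts stand beside 16.6% of all tested genes called higher and 16.8% called lower, and no list was tested against the rest. Of 10 tested further EMT-inducing transcription factors 1 rose and 5 fell, with a median log2 change of -0.26; the other 7 of the 17 listed were low. ETS1 fell from 131.7 ± 0.318 to 97.2 ± 2.40 CPM (SD over 2 libraries), SOX9 fell by 0.29, SOX4 by 0.17 and RUNX2 by 0.58 on the log2 scale, and FOXC1, a forkhead factor, rose by 0.40. FOXC1 read 30.1 and 22.6 CPM in the knockdowns, and its call was lost without EMP2 knockdown replicate 1, without a filter, without the abundance trend and with DESeq2. SOX4 was not called with DESeq2, and neither SOX4 nor SOX9 was called without the abundance trend. The further epithelial transcription factors were mixed, with 2 of 12 tested higher and 5 lower (median -0.076). TP63 fell from 9.15 ± 1.05 to 1.32 ± 0.0403 CPM (SD over 2 libraries), with 18 reads in each knockdown library. At so low a level its log2 change of -2.40 ran from -2.80 to -2.13 over the alternatives. ELF3 fell by 0.48, KLF5 by 0.23 and TFAP2A by 0.19 on the log2 scale. OVOL1, a repressor of ZEB1, rose from 4.10 ± 0.313 to 6.40 ± 0.686 CPM (SD over 2 libraries). Its relative OVOL2 fell from 18.9 ± 0.376 to 15.8 ± 0.276 CPM (SD over 2 libraries). The log2 change of OVOL2 was -0.25 (adjusted p by limma 0.0406), a call that did not hold under every alternative. OVOL1 lost its call without control replicate 1, without EMP2 knockdown replicate 1 and with DESeq2, and KLF5 and TFAP2A lost theirs without the abundance trend. The corepressors and dimer partners of EMT factors had 3 of 14 higher and 1 lower (median 0.064). Among them KDM1A, the histone demethylase recruited by SNAI1, rose from 280.6 ± 5.68 to 370.0 ± 7.36 CPM (SD over 2 libraries), with a log2 change of 0.40 (adjusted p by limma 1.79e-08). The LIM protein AJUBA rose by 0.33 and SIN3A by 0.11, and CTBP2 fell by 0.12 on the log2 scale. With scaling by the plain library total this list split into 7 higher and 0 lower, so that CTBP2 is not called there, nor is it with quantile scaling. CTBP2 also lost its call without control replicate 1 or EMP2 knockdown replicate 1, and SIN3A without control replicate 1, control replicate 2 or EMP2 knockdown replicate 2. Neither CTBP2 nor SIN3A was called with DESeq2, and without the abundance trend AJUBA, SIN3A and CTBP2 were not called.

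Splicing regulators and their targets moved in both directions, with list medians close to that of all tested genes. The counts below stand beside the same 16.6% of all tested genes called higher and 16.8% called lower. Of 16 tested further splicing regulators tied to EMT, 2 rose and 5 fell (median -0.016). RBM47, which is known to hold back breast cancer progression, fell from 65.8 ± 0.427 to 47.8 ± 0.473 CPM (SD over 2 libraries), with a log2 change of -0.46 (adjusted p by limma 2.02e-06). QKI, which promotes mesenchymal splice forms, rose by 0.28, MBNL1 rose by 0.16 and MBNL3 fell by 0.36 on the log2 scale; SRSF1 fell by 0.087 and TRA2B by 0.11. The calls of SRSF1 and TRA2B were lost without control replicate 2, that of SRSF1 also without EMP2 knockdown replicate 2 and that of TRA2B without EMP2 knockdown replicate 1. Neither was called with DESeq2, SRSF1 was not called with scaling by the plain library total, and without the abundance trend RBM47 alone of these 6 was called. Of 14 genes with exons that ESRP proteins regulate, 4 rose and 3 fell (median -0.0097). FGFR2 rose from 12.5 ± 1.51 to 17.8 ± 0.284 CPM (SD over 2 libraries), CTNND1 by 0.21 and ENAH by 0.090 on the log2 scale, and CD44 fell by 0.23 and SLK by 0.15. ENAH was not called without control replicate 1, nor SLK without EMP2 knockdown replicate 1 or with DESeq2. Without the abundance trend FGFR2, CTNND1, ENAH, CD44 and SLK were not called. These are totals per gene. The choice of exons, which is what ESRP1 and ESRP2 control, was not measured.

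More genes rose than fell both among epithelial genes tied to ZEB, SNAI or GRHL2 factors and among mesenchymal effector genes. Regulation of either list by these factors was not tested. Of 23 tested epithelial genes that ZEB or SNAI factors repress or GRHL2 activates, 11 rose and 5 fell (median 0.16). OCLN, the tight junction protein occludin, rose from 16.2 ± 0.0136 to 30.8 ± 1.98 CPM (SD over 2 libraries), and the claudins CLDN4 and CLDN7 by 0.76 and 0.41 on the log2 scale. TJP3, a tight junction scaffold, fell from 12.6 ± 0.602 to 6.78 ± 0.0522 CPM (SD over 2 libraries), and S100A14 fell by 0.44 on the log2 scale. Of 19 tested mesenchymal effector genes 11 rose and 3 fell (median 0.42). The tropomyosin TPM1 rose from 30.1 ± 1.70 to 68.9 ± 0.184 CPM (SD over 2 libraries) and MYL9, a myosin light chain, by 1.85 on the log2 scale. Fibronectin (FN1) rose by 0.76, TGFBI by 0.83 and COL5A1 by 1.03 on that scale, while the collagen cross-linking enzyme gene LOXL2 fell from 214.7 ± 2.18 to 147.5 ± 4.19 CPM (SD over 2 libraries). Of all tested genes 16.6% rose and 16.8% fell, and no list was tested against the rest.

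**Figure D5:**
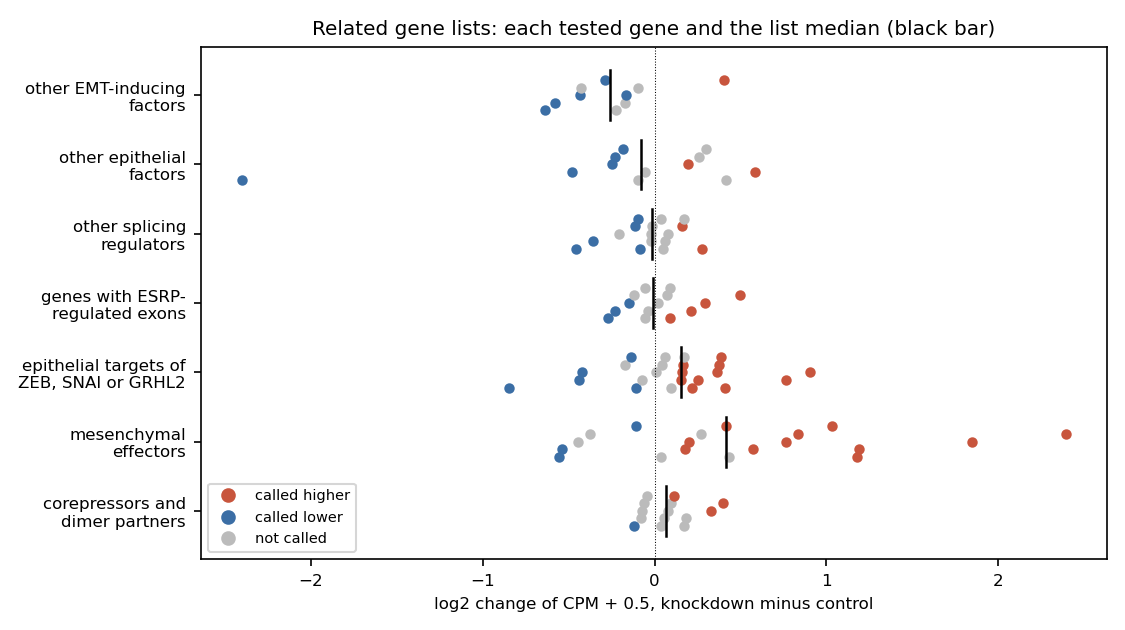
Log2 change (horizontal axis) of each tested gene in 7 related lists, coloured by limma call, with the list median as a black bar; the vertical offset within a list only separates the points. The medians run from -0.26 for the further EMT-inducing factors to 0.42 for the mesenchymal effectors.

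Mature microRNAs were not measured, but the host transcript of miR-205, a microRNA known to repress ZEB1 and ZEB2, was. MIR205HG read 8.09 and 7.65 CPM with the control construct against 7.10 and 8.62 CPM with the hairpin, with overlap (log2 change -0.0075, limma adjusted p = 0.978). The mature microRNA (RefSeq, GRCh38.p14, chr1:209432166-209432187, plus strand) is printed 5′ to 3′ with its seed, bases 2 to 8, in capitals, because this seed is the stretch through which miR-205 is known to recognise ZEB transcripts.
hsa-miR-205-5p: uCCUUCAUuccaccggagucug

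Profiles were compared over the 11095 genes whose mean reached 5 CPM, and the most similar were found by the Euclidean distance over the 4 libraries, in log2(CPM + 0.5) relative to the control mean. ABTB2 (distance 0.0703), the collagen chain COL5A1 (0.115) and the placental-type phosphatase gene ALPPL2 (0.122) were nearest to CDH2. The nearest gene was ATP5D for VIM (0.00675), WWC2 for SNAI1 (0.0120), DTX2 for SNAI2 (0.0315), PPP1R3E for ZEB2 (0.0492), GNB2 for ESRP1 (0.00884) and MGA for GRHL2 (0.00666). With 4 libraries such likeness mostly restates the size of the change.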

How the data were processed

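Per the labels' protocols, total RNA was depleted of ribosomal RNA and sequenced as single reads on an Illumina HiSeq. The tools bcl2fastq 2.17, STAR and DESeq2 and the build GRCh38 are named, per the submitters' processing notes; no source used here gives the counter, annotation or strand. The authors deposited TMM-normalized CPM. Whole reads were recovered from the CPM: in every library 100% of values lay within 0.1 read of a whole number of reads. Libraries of a group differed beyond counting noise (chi-square 1.66 and 1.64 per gene), and all 4 were counted. This value cannot tell separate cultures from repeated preparations of 1 culture. The spread within groups estimated by edgeR (common biological coefficient of variation) was 2.15%. The test was limma 3.58.1 (R 4.3.3) on the log2 of CPM plus 0.5, two-sided, with the prior variance following abundance (the abundance trend). P-values were adjusted by Benjamini-Hochberg over the 13661 genes that reached 1 CPM in 2 or more libraries. A run on simulated data held far fewer changed genes than were called here, so it cannot vouch for these calls. edgeR 4.0.16 (2135 genes higher and 2371 lower) and DESeq2 1.42.0 on recovered reads, other pseudocounts, filters and scalings, a replicate block and leaving out each library were alternatives. Genes, lists and tests were chosen with earlier results of these data known. Named were the 10 genes, EMP2, up to 6 called genes per list by smallest adjusted p, and nearest profiles. OVOL2 was added beside OVOL1 and is not in the counts of named genes below. The host gene of miR-200c was not analysed here. Some genes of the lists are counted but not reported by name here.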

Additional observations from a re-analysis of the deposited data

How the results depend on the processing

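Without the abundance trend limma called 916 genes higher and 1016 lower, and DESeq2 993 and 1181, against 2269 and 2294; without single libraries the counts ran from 1869 to 2093 and from 1843 to 2122. Of the 10 genes, no trend left 2 higher and 1 lower, and DESeq2 left 4 higher and 1 lower. Removing the trend alters the prior variance alone, so the log2 changes of the lost calls could not differ. They stayed at -0.39 for ZEB2, 0.39 for SNAI2, 0.12 for ESRP1 and 0.20 for GRHL2. With DESeq2, which fits the change anew, the lost calls had -0.41 for ZEB2 and 0.12 for ESRP1. Leaving out single libraries gave ranges of -0.52 to -0.27 for ZEB2, 0.095 to 0.14 for ESRP1 and -0.037 to 0.059 for TWIST1, which changed sign. ZEB1 went from 0.38 to 0.77 with a pseudocount of 0.1. The cause of these shifts was not tested.

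With no trend the lists had fewer calls, higher and lower. Further EMT factors had 0 and 3, epithelial factors 1 and 3, splicing regulators 0 and 1 and ESRP-regulated genes 1 and 0. Epithelial targets had 5 and 3, corepressors 1 and 0 and mesenchymal effectors 7 and 2. With DESeq2 the calls, higher and lower, were 0 and 3 for further EMT factors and 0 and 4 for epithelial factors. Splicing regulators had 2 and 2, and ESRP-regulated genes 4 and 1. Epithelial targets had 7 and 3, corepressors 2 and 0 and mesenchymal effectors 9 and 2. Without a filter 0 further EMT factors rose. With the plain library total 3 splicing regulators fell, and 7 corepressors rose and 0 fell; with edgeR 3 corepressors fell. Leaving out single libraries gave 0 to 1 higher for further EMT factors, 1 to 3 higher for epithelial factors, 2 to 5 lower for splicing regulators, 1 to 4 lower for ESRP-regulated genes, 3 to 5 lower for epithelial targets, and 2 to 5 higher and 0 to 2 lower for corepressors.

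No batch shared by same-numbered libraries was seen (correlation of deviations -0.0030 over 13661 genes). Counting noise weakens such a correlation, and a batch that coincides with the groups cannot be seen in it. With the replicate block the calls of the 10 genes stayed at 5 higher and 2 lower. The median log2 change of all genes was 0.0037, 0.0034 with quantile scaling and 0.025 with the plain library total. At 121 to 291 reads per library CDH2 and ZEB2 carry more counting error than the other tested genes of the 10. Of 41 further genes named from the lists, 19 lost their call without the trend, 10 with DESeq2, 0 with edgeR and 2 to 6 when a library was left out.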
